A study of Mus musculus with 2 samples.

Results

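Prrx1, Prrx2, Shox2, Alx4, Twist1, Twist2, Hand2, Meis1 and Meis2 encode 9 transcription factors of the embryonic limb mesenchyme. They were chosen by symbol and not by a rule on their values, though earlier results of these data were known. They are 9 of the 43346 mouse genes in the tables. All 9 were found, all had a mean of at least 1 TPM (a transcript level scaled by transcript length and library size), and 15571 genes in all passed that minimum. The samples were limbs of mouse embryos of strain B6NCrl at 15.5 days, in 1 group of 2 biological replicates. Replicate 2 pooled 62 embryos and replicate 1 pooled 78 embryos, both sexes mixed. No allele or agent is named in the labels, and neither is the limb pair dissected. Total RNA longer than 200 nt was sequenced from 10 ng per library, with spike-in RNAs added. There is no second condition, so no p-value is given, and the errors below are SDs of 2 libraries.

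The limb bud starts as mesenchyme under an ectodermal jacket, and these factors divide and hold that mesenchyme. Prrx1, Prrx2, Shox2 and Alx4 carry a paired-like homeodomain and bind DNA through it. Twist1, Twist2 and Hand2 are basic helix-loop-helix (bHLH) proteins, which bind DNA as dimers with each other or with the broadly expressed E proteins. Meis1 and Meis2 carry a TALE homeodomain (one with a loop extended by a few residues), bind DNA together with Pbx proteins and mark the proximal limb in the early bud. At the stage sampled here the limb has formed its cartilage templates, muscle, digits and layered skin, so undifferentiated mesenchyme is one tissue among several.

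Expected counts (estimated reads per gene) summed to 41757268 and 35104685 in replicates 2 and 1. Limb genes were present in both pools: the homeobox gene Msx1 had 113 TPM in replicate 2 and 131 in replicate 1, and all 7 genes of the limb identity list had a mean of at least 1 TPM. The forelimb gene Tbx5 had 12.0 and 16.0 TPM in replicates 2 and 1, and the hindlimb genes Tbx4 and Pitx1 had 18.0 and 30.8 TPM in replicate 2 and 12.6 and 19.1 TPM in replicate 1. The lowest of that list was Lmx1b, the dorsal limb gene, with 3.38 TPM in replicate 2 and 2.43 in replicate 1. Summed connective tissue markers reached 6739 TPM in replicate 2 and 7547 in replicate 1, and cartilage markers 1629 and 1538 TPM. The pools stood apart in skeletal muscle, whose 10 markers were all lower in replicate 2 (1871 TPM summed) than in replicate 1 (6120 TPM), and bone markers summed to 394 and 751 TPM in replicates 2 and 1. Epidermal markers summed to 7243 and 7158 TPM, erythroid markers to 31416 and 30788 TPM, and endothelial markers to 229 and 266 TPM in replicates 2 and 1. Neuronal markers stayed at 18.0 and 16.4 TPM summed. Heart markers summed to 117 and 286 TPM, nearly all of it Myl4 (109 and 276 TPM), which embryonic skeletal muscle also expresses. Of the 6 heart markers, 3 had a mean of at least 1 TPM. Beside Myl4 these were Myl7 (3.06 and 5.20 TPM in replicates 2 and 1) and Tnni3 (4.67 and 5.06 TPM). The other 3 were below 1 TPM, among them Nkx2-5 with 1 count in replicate 2 and 2 counts in replicate 1.

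The 9 factors spanned a 47.9-fold range of mean level, from Prrx1 at 90.3 ± 5.59 TPM to Alx4 at 1.89 ± 0.177 TPM (SD, n = 2). Of the 9 genes, 7 had at least 10 TPM in both libraries. Their sum was 306 TPM in replicate 2 and 267 in replicate 1, which is 0.0306% and 0.0267% of all TPM. Prrx1 alone made up 31.6% ± 1.05 of that sum, Twist2 20.1% ± 1.27, Prrx2 16.4% ± 1.77 and Twist1 10.4% ± 2.08 (SD, n = 2). The 4 paired-like genes held 58.1% of the sum in replicate 2 and 58.7% in replicate 1. The 3 bHLH genes held 32.9% and 31.5%, and the Meis pair 9.02% and 9.76%. Because these are whole limbs, fewer expressing cells and less RNA per cell cannot be told apart.

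**Figure D1:**
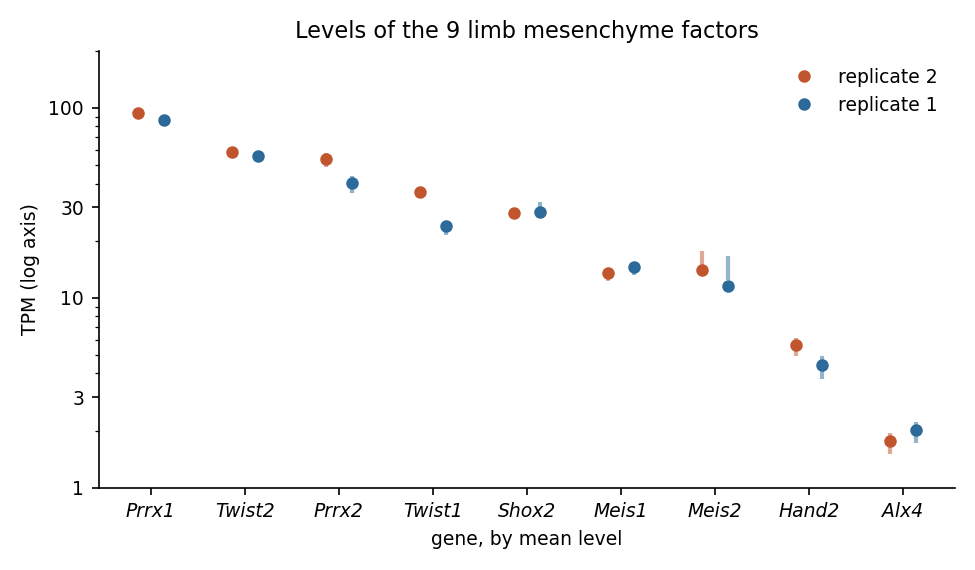
Levels of the 9 genes in TPM on a log axis, ordered by mean level. Points are the libraries, replicate 2 left of replicate 1, and vertical lines are the deposited intervals of each TPM value. Prrx1 stands highest (94.2 and 86.3 TPM) and Alx4 lowest (1.76 and 2.01 TPM), and both points of Meis2 lie under their intervals, in replicate 2 by too little to see.

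To decide which levels could be told apart, each difference was set against a yardstick taken from all genes. The yardstick is the 95th percentile, among genes of like level, of how far the libraries lie apart on the log2 scale, so about 5.01% of genes exceed it. It covers the spread of a gene between the libraries. Errors of length scaling or read assignment that differ from gene to gene are not covered. A pair was called apart when its log2 ratio exceeded the larger yardstick of the genes compared, in the same direction in both libraries. In the order Prrx1, Twist2, Prrx2, Twist1, Shox2, Meis1, Meis2, Hand2, Alx4, 4 of the 8 neighbouring pairs were apart. Prrx1 stood above Twist2 (log2 ratio 0.68 in replicate 2 and 0.62 in replicate 1, yardstick 0.34). Prrx2 stood above Twist1 (0.57 and 0.76, yardstick 0.39) and Shox2 above Meis1 (1.04 and 0.95, yardstick 0.51). Meis2 stood above Hand2 (1.31 and 1.37, yardstick 0.96). Twist2 and Prrx2 were not apart, with 0.12 in replicate 2 and 0.47 in replicate 1 (yardstick 0.37). Twist1 over Shox2 was 0.38 in replicate 2 and -0.25 in replicate 1, and Meis1 over Meis2 was -0.06 and 0.33, so those neighbours changed places between the libraries. Hand2 and Alx4 differed by 1.63 and 1.10 against a wide yardstick of 1.5 at their low levels. The resulting tiers were Prrx1, then Twist2 and Prrx2, then Twist1 and Shox2, then the Meis pair, then Hand2 and Alx4. Their borders depended on the setting. By CPM (counts scaled to library size and not to length) Prrx2 and Twist1 were no longer apart (-0.008) and Twist2 stood above Prrx2 (0.701). On that scale Prrx1 over Twist2 was 2.403, against 0.653 by TPM. Twist2 also stood above Prrx2 without replicate 2 (0.471), and Hand2 above Alx4 with posterior mean TPM (1.356) and without replicate 1 (1.626). Of 8 gene pairs or sums compared further on, 6 were apart by the same rule.

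Prrx1, the paired-related homeobox gene that is expressed across limb mesenchyme and whose enhancer drives the Cre line commonly used there, lies on chromosome 1 (chr1:163245119-163313710, minus strand, mm10). It had 94.2 TPM in replicate 2 (10985 expected counts) and 86.3 in replicate 1 (8048 expected counts). Those levels place it at rank 1877 of all 43346 genes by mean TPM. Its close relative Prrx2 (chr2:30834972-30881251, plus strand), which acts together with Prrx1 in the limb and face, had 53.9 TPM in replicate 2 and 40.4 in replicate 1. Prrx1 was 1.93-fold above Prrx2 (log2 0.95 ± 0.20, SD, n = 2), beyond the yardstick of 0.37 in both libraries. Both levels include forms without an annotated protein, which are given below. The excess of Prrx1 was smaller in replicate 2 (log2 0.80) than in replicate 1 (log2 1.09).

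Shox2, a homeobox gene needed for the upper segment of the limb skeleton (chr3:66971727-66981771, minus strand), had 27.9 TPM in replicate 2 and 28.2 in replicate 1. It was the steadiest of the 9, with a centred log2 difference of 0.01. Prrx1 exceeded Shox2 by 3.21-fold (log2 1.68 ± 0.10, SD, n = 2). Alx4, which restricts posterior signalling on the anterior side of the bud and whose loss gives extra digits (chr2:93642384-93681339, plus strand), had 1.76 TPM in replicate 2 (248 counts) and 2.01 in replicate 1 (236 counts). Prrx1 exceeded Alx4 by 45.6-fold (log2 5.51 ± 0.22) and Shox2 exceeded it by 14.2-fold (log2 3.83 ± 0.12, SD, n = 2), both beyond the yardstick of 1.5 in both libraries. Of 8 other paired-like genes reported here, 7 were found in the tables and 1 had a mean of at least 1 TPM. That was Alx1, a relative of Alx4, with 0.97 TPM in replicate 2 and 2.15 in replicate 1. Uncx, a gene of the somites, had 0.19 and 0.30 TPM and the neural gene Phox2a 0.12 TPM in both libraries. The neural gene Otp and the placental gene Esx1 had 0 counts in both.

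Twist2, a bHLH repressor found in dermal and other mesenchyme (chr1:91801461-91848028, plus strand), had 58.6 TPM in replicate 2 and 56.0 in replicate 1. Twist1, its relative that keeps limb bud mesenchyme alive and signalling (chr12:33957671-33959829, plus strand), had 36.2 TPM in replicate 2 (1497 counts) and 23.8 in replicate 1 (804 counts). Twist2 was the higher of the pair in both libraries, by 1.95-fold on average (log2 Twist1 over Twist2 -0.96 ± 0.38, SD, n = 2, yardstick 0.39). The ratio moved by 0.54 on the log2 scale between the libraries, with -0.69 in replicate 2 and -1.23 in replicate 1. Hand2, the bHLH gene of the posterior bud that switches on Shh (chr8:57320983-57324633, plus strand), had 5.64 TPM in replicate 2 (329 counts) and 4.41 in replicate 1 (210 counts). Twist1, which can pair with Hand2 in a dimer, stood 5.78-fold above it (log2 2.53 ± 0.18, SD, n = 2), beyond the yardstick of 0.96.

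The genes of the E proteins, with which Twist and Hand2 form dimers, had higher levels than those of their partners. Tcf4 had 226 and 240 TPM in replicates 2 and 1, Tcf3 91.2 and 80.7 TPM, and Tcf12 72.7 and 67.9 TPM. Their sum of 390 and 388 TPM compares with 100 and 84.2 TPM for Twist1, Twist2 and Hand2 together. The Id genes, whose products hold E proteins in dimers that cannot bind DNA, summed to 783 and 786 TPM. Id3 led them with 402 and 414 TPM, ahead of Id2 (223 and 217 TPM) and Id1 (138 and 141 TPM). Id4 was lowest with 19.6 TPM in replicate 2 and 14.3 in replicate 1, barely beyond its yardstick (log2 0.473, yardstick 0.470). Of 10 other tissue-restricted bHLH genes, 5 had a mean of at least 1 TPM. Scx, the tendon gene, was highest with 34.0 TPM in replicate 2 and 26.3 in replicate 1. Msc, which marks muscle precursors, had 14.9 and 24.9 TPM in replicates 2 and 1. Msc differed beyond its yardstick (log2 -0.720, yardstick 0.471), and Scx barely so (log2 0.395, yardstick 0.388). Tcf15, a gene of the somites, had 6.29 and 5.24 TPM. Ptf1a, a pancreas and nerve cell gene, had 0 counts in replicate 2 and 1 count in replicate 1, and Tcf23 had 4 and 5 counts. Hand1, the only relative of Hand2 in its subfamily, is given here although it lies outside the naming rule and was chosen after its values were seen: it had 0.89 and 1.42 TPM.

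Meis1 (chr11:18879817-19018985, minus strand) and Meis2 (chr2:115863064-116065839, minus strand) are induced by retinoic acid in the early bud and withdraw from its distal part. Meis1 had 13.5 TPM in replicate 2 and 14.5 in replicate 1, and Meis2 had 14.1 and 11.6 TPM. The log2 ratio of Meis2 over Meis1 was 0.06 in replicate 2 and -0.33 in replicate 1, within the yardstick of 0.56 both times. For Meis2 the TPM lay under the deposited interval in both libraries, barely so in replicate 2. The interval ran from 14.11 to 17.7 TPM in replicate 2 and from 12.4 to 16.6 TPM in replicate 1, and the deposited posterior means were 15.9 and 14.4 TPM. Every other member had its TPM inside its interval in both libraries. Set against genes of the distal limb, Meis1 plus Meis2 had 27.6 and 26.1 TPM, and the digit genes Hoxa13 plus Hoxd13 had 40.9 TPM in replicate 2 and 26.8 in replicate 1. The log2 ratio of those sums was -0.57 in replicate 2 and -0.04 in replicate 1, beyond the yardstick of 0.56 in replicate 2 alone.

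All 8 TALE partners and relatives of Meis reported here had a mean of at least 1 TPM, and none differed between the libraries beyond its yardstick. The repressors Tgif1 (52.5 and 51.1 TPM) and Tgif2 (43.3 and 41.5 TPM) were the highest of them, followed by Pknox1 (23.2 and 24.2 TPM). Pbx4 (3.84 and 3.63 TPM) and Pknox2 (6.78 and 7.35 TPM) were the lowest. These 8 genes summed to 169 and 166 TPM in replicates 2 and 1. Meis3, the remaining Meis gene, is outside the naming rule and was chosen after its values were seen, and its 15.1 and 16.5 TPM were of the same order as those of Meis1 and Meis2.

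**Figure D2:**
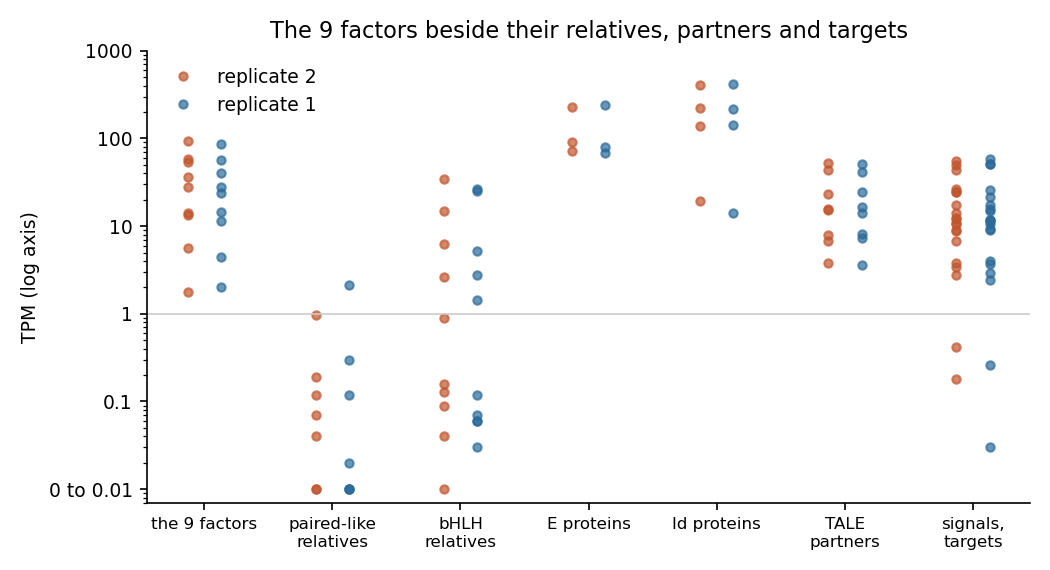
TPM on a log axis of the 9 factors and of 6 lists of relatives, dimer partners, inhibitors and signalling genes, with 1 point per gene and library, replicate 2 left of replicate 1. Values of 0.01 or less are drawn at the lowest mark. The factors lie between 1.76 and 94.2 TPM, and Tcf4, Id1, Id2 and Id3 lie above all 9 of them in both libraries.

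Because reads of like genes can be confused, the exact stretches shared within each pair of paralogues were searched. The annotated proteins of Prrx1 and Prrx2 were identical at 66.1% of aligned residues, those of Twist1 and Twist2 at 82.5% and those of Meis1 and Meis2 at 83.4%. The longest exact run shared by the coding sequences was 19 nt for the Prrx pair and 23 nt for each of the other pairs. The effective lengths in the tables were 99 nt shorter than the listed lengths in the median gene. The runs are given here in capitals, with 15 bases of coding sequence in lower case on each side, 5′ to 3′ on the coding strand of GENCODE M21, to show how soon the paralogues part. In order they lie at chr1:163248310-163248358 (minus), chr2:30880830-30880878 (plus), chr12:33958365-33958417 (plus), chr1:91801876-91801928 (plus), chr11:18885598-18885650 (minus) and chr2:115868750-115868802 (minus). The Twist run codes for part of the bHLH domain and the Meis run for the end of the homeodomain.
Prrx1: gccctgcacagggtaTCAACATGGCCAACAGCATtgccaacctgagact
Prrx2: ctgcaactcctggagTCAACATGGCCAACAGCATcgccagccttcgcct
Twist1: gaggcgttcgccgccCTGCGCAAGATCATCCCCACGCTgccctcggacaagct
Twist2: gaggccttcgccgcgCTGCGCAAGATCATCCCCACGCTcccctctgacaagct
Meis1: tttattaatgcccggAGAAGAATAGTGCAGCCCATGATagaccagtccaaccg
Meis2: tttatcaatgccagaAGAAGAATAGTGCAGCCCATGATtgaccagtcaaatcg

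The transcript tables held 48 annotated forms of the 9 genes. Hand2 and Twist1 had 1 form each. In 3 of the 7 genes with several forms, 1 form took over 50% of the TPM in both libraries: Alx4-201 (98.9% and 94.0% in replicates 2 and 1), Shox2-203 (89.1% and 87.4%) and Twist2-201 (97.7% and 98.0%). Alx4-202, the other Alx4 form, had 1.14% and 5.97%. Prrx1, Prrx2, Meis1 and Meis2 were divided among several forms. These shares are the deposited model's division of reads among overlapping forms. The deposited intervals were narrow for some forms, such as Twist2-201 (53.5 to 58.6 TPM in replicate 2 and 50.8 to 56.3 TPM in replicate 1), and wide for others, such as those of Meis2.

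The annotated proteins of Prrx1 differ at the end. The gene reads through 3 shared exons and then either skips or includes a short exon of 72 nt (chr1:163253977-163254048). Skipping gives a protein of 245 codons with the OAR motif, a short conserved tail of several paired-like factors, and inclusion gives 217 codons without it. A further annotated form runs on past exon 3 and ends after 200 codons. The coding junctions are printed for the skipping form (Prrx1-201) and the including form (Prrx1-202), 5′ to 3′, with the last 24 bases of exon 3 in lower case and the 36 bases that follow in capitals.
Prrx1-201: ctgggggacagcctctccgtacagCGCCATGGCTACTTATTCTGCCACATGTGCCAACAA
Prrx1-202: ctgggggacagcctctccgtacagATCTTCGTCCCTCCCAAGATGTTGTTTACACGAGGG

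The form of 245 codons had 35.3 TPM in replicate 2 and 32.6 in replicate 1, which is 37.4% and 37.8% of the gene. The form of 217 codons had 7.76 and 5.85 TPM (8.24% and 6.78%), with a deposited interval from 4.80 to 11.6 TPM in replicate 2 and from 1.96 to 9.42 TPM in replicate 1. Prrx1-205, a processed transcript with no annotated protein that also holds the short exon, had 24.9 and 24.8 TPM. The form of 200 codons had 24.9 TPM in replicate 2 and 21.9 in replicate 1. Among forms spliced out of exon 3, the short exon was included in 48.3% ± 0.247 (SD, n = 2) when Prrx1-205 was counted. Among the protein-coding forms spliced there, Prrx1-201 and Prrx1-202, inclusion of the short exon was 16.6% ± 2.00. The long form thus led the short one among them in both libraries (82.0% and 84.8% skipping). The form of 200 codons is also protein-coding but is not spliced out of exon 3, so these shares leave it out. Prrx2 had its form Prrx2-201, of 247 codons, at 46.0% and 43.3% of the gene. The retained-intron forms Prrx2-203 and Prrx2-204 took 20.5% and 17.1% in replicate 2 and 26.4% and 16.1% in replicate 1. Prrx2-202, with another first exon and 175 codons, took 16.4% and 14.2%.

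Meis1 and Meis2 share a choice near the end of the protein. After exon 11 a 95-nt exon is either included or skipped (chr11:18883988-18884082 in Meis1 and chr2:115866810-115866904 in Meis2). Inclusion brings an early stop and gives 390 codons in Meis1, the form called Meis1a, while skipping gives 465 codons, called Meis1b. In Meis2 the forms compared have 394 and 470 codons. The junctions are printed with the last 24 bases of exon 11 in lower case and the next 36 coding bases in capitals, the skipping form of each gene before the including one.
Meis1-209: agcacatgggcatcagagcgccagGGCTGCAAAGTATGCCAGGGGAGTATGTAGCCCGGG
Meis1-201: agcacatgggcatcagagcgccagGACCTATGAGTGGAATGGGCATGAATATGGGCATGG
Meis2-203: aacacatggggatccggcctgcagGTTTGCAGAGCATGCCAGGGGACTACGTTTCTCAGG
Meis2-206: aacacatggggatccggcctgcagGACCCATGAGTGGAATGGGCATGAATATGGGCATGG

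The included exon is much the same in both genes. Over its whole length the 95-nt exon had 82 identical bases between Meis1 and Meis2 (86.3%), and the 8 exons of equal length ranged from 73.3% for exon 11 to 89.8% for exon 10. Among Meis1 forms spliced out of exon 11, the 95-nt exon was included in 80.6% in replicate 2 and 87.3% in replicate 1 (83.9% ± 4.74, SD, n = 2). Among the protein-coding forms spliced there the share was 72.7% ± 7.62, so the RNA of the short protein led in both libraries. In Meis2 inclusion was 66.9% in replicate 2 and 56.6% in replicate 1 (61.7% ± 7.25). Inclusion was higher in Meis1 than in Meis2 in both libraries. Among protein-coding forms alone the gap in replicate 2 was smaller, with 67.4% in Meis1 and 63.0% in Meis2. In replicate 1 those shares were 78.1% and 55.7%. Whether inclusion would differ in further pools was not tested.

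The largest single Meis1 form was a processed transcript without annotated protein, Meis1-203, with 5.23 and 5.41 TPM, followed by the Meis1a form Meis1-201 with 4.23 and 5.36 TPM. The Meis1b form Meis1-209 had 2.05 TPM in replicate 2 and 1.5 in replicate 1. The deposited intervals of those last forms overlapped in replicate 2 (2.53 to 5.39 TPM for Meis1-201 and 0.621 to 3.03 TPM for Meis1-209) and did not in replicate 1 (3.76 to 6.59 TPM and 0.03 to 2.36 TPM). The retained-intron forms Meis1-205 (1.12 and 1.09 TPM) and Meis1-204 (0.35 and 0.73 TPM) were lower. Meis2 had 19 annotated forms, of which 8 reached 5% of the gene in either library and 7 were at 0 in both. Meis2-206 (394 codons) had 2.92 and 3.44 TPM, Meis2-203 (470 codons) 2.97 and 2.43 TPM, and Meis2-202 (393 codons) 2.27 and 1.22 TPM. The retained-intron form Meis2-213 had 1.57 and 1.25 TPM, Meis2-201 (477 codons) 0.97 and 1.80 TPM, and Meis2-204 (400 codons) 0.79 and 0.65 TPM. Meis2-205 (401 codons, 0.72 TPM) and Meis2-215 (no annotated protein, 0.75 TPM) were above 0 in replicate 2 and listed at 0 in replicate 1. These forms share most exons, so single values are uncertain: the deposited interval of Meis2-206 ran from 0.207 to 3.78 TPM in replicate 2 and from 0.890 to 3.52 TPM in replicate 1.

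Further choices, 1 in Meis2 and 1 in Shox2, insert whole codons. Exon 11 of Meis2 can begin 21 nt earlier, which adds 7 codons (chr2:115867359-115867379), and exon 5 of Shox2 can begin 36 nt earlier, which adds 12 codons (chr3:66973908-66973943). The junctions of both genes follow in the same layout, the shorter exon first. In Meis2-201 the first 21 capitals are the addition and the bases after them open the shorter exon, and in Shox2-201 the addition is all 36 capitals.
Meis2-203: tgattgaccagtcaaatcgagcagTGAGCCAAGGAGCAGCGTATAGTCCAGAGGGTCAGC
Meis2-201: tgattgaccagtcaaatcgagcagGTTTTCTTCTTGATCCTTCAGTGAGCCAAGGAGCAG
Shox2-203: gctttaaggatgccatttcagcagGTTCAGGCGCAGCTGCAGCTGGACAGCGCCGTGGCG
Shox2-201: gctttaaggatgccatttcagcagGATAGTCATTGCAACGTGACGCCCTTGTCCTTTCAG

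The 7 added codons of Meis2 were in 28.6% of forms spliced out of exon 10 in replicate 2 and 25.1% in replicate 1 (26.9% ± 2.45, SD, n = 2). Some of these forms have no annotated protein, and among protein-coding forms the shares were 23.3% and 25.7%. With posterior mean TPM over all forms they were 35.9% and 36.6%, so the SD does not cover the uncertainty of read assignment. The 12 added codons of Shox2 were in 8.90% and 11% (9.97% ± 1.5). Shox2-201, which carries them, had 2.48 TPM in replicate 2 and 3.11 in replicate 1, against 24.8 and 24.7 TPM for Shox2-203. Their annotated coding sequences differ by more than the addition, with 331 codons in Shox2-201 and 239 in Shox2-203. That of Shox2-203 has 719 nt, which is not a whole number of codons. It may therefore be incomplete, and 239 codons cannot be read as the length of its protein.

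**Figure D3:**
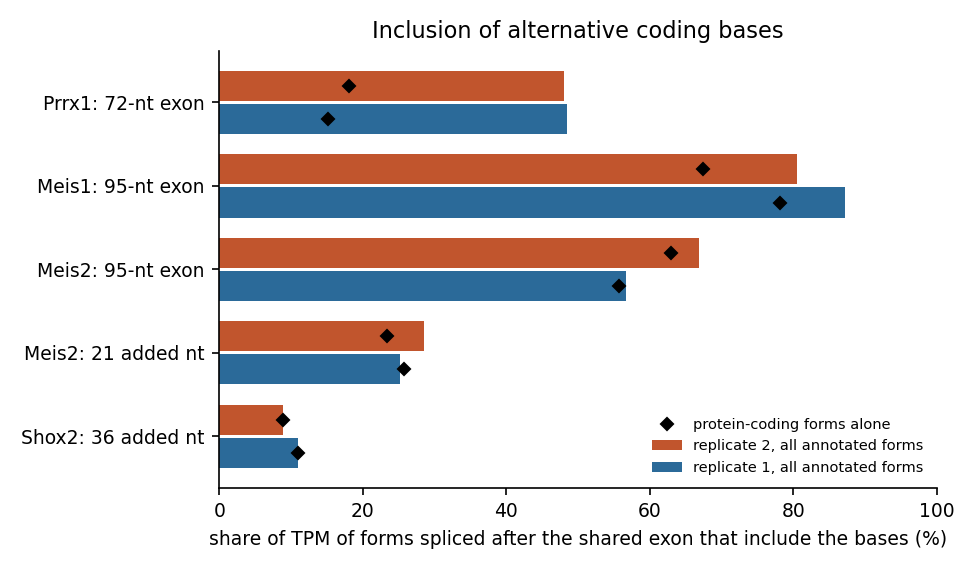
Share of spliced forms, in percent of TPM, that include the alternative bases of Prrx1, Meis1, Meis2 and Shox2, with replicate 2 above replicate 1. Diamonds give the share among protein-coding forms alone, which is far lower for Prrx1 (18.0% and 15.2%) than the share over all annotated forms (48.1% and 48.4%).

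Several of these genes lie in or beside other transcribed genes, and strand use in the counting is not given in the sources used here, so reads of genes on opposite strands may not have been kept apart. In all, 16 annotated genes overlapped a member or began within 5 kb of its start. Of these, 9 were on the opposite strand and 4 shared exon bases with the member. Shared exon bases were counted over deposited forms that are also in GENCODE M21, so forms found in M21 alone were not searched. Hand2os1, a noncoding gene annotated on the opposite strand through Hand2, had 31.6 TPM in replicate 2 (464 counts) and 16.9 in replicate 1 (211 counts). That is 5.60-fold and 3.83-fold the TPM of Hand2. The listed length of Hand2os1 is 659 nt, and per gene without length scaling its counts compare with 329 and 210 for Hand2. Hand2os1 was 1.90-fold higher in replicate 2, beyond its yardstick of 0.51 (log2 0.92). No exon bases shared with Hand2 were found among the forms searched. Hand2 itself was 1.29-fold higher in replicate 2, within its yardstick.

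Shox2 and the splicing gene Rsrc1 start 381 nt apart on opposite strands and share 153 exon bases, and Rsrc1 had 29.5 and 33.2 TPM in replicates 2 and 1. Alx4 overlaps Ext2, a heparan sulphate enzyme gene read from the other strand, which had 93.9 and 102 TPM, 53.3-fold and 50.9-fold the level of Alx4, with no shared exon bases. Within Prrx1, the noncoding genes Gm26523 (20.9 and 18.1 TPM), Gm20471 (4.18 and 3.32 TPM) and Gm37644 (2.45 and 2.23 TPM) shared no exon bases with it. Gm29100, on the other strand of Twist2 with 1477 shared exon bases, had 1.21 and 1.12 TPM, and the intronic Gm29101 had 4.14 and 3.66 TPM. Asb6, next to Prrx2, had 26.9 and 29.0 TPM. Around Meis1, Gm16141 had 2.34 and 1.88 TPM, and Gm37818, 2900018N21Rik, 2610001A08Rik and Gm16140 each stayed under 1 TPM. Gm16140, with a listed length of 894 nt, shares 896 exon bases with Meis1 and had 14.1 counts in replicate 2 and 0 in replicate 1. With strand use not given, those counts may rest on how shared reads were assigned. Beside Meis2, 2700033N17Rik had 3.18 and 1.73 TPM and G630016G05Rik 0.32 and 0.12 TPM. Twist1 had no such neighbour.

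Between the pools, 7 of the 9 factors were higher in replicate 2 and 2, Meis1 and Alx4, were higher in replicate 1, after centring on the median gene. Shox2 counts among the 7 by a centred log2 difference of 0.01 alone, and its TPM before centring was lower in replicate 2. No member was over 2-fold apart, against 3.63% of the 15571 genes. Twist1 and Prrx2 were beyond their yardsticks, 2 of 9, against 5.01% of all genes. Twist1 was 1.55-fold higher in replicate 2 (log2 0.63, yardstick 0.39) and 2.18% of genes of like level were further apart. Prrx2 was 1.35-fold higher (log2 0.44, yardstick 0.37) and 3.59% of like genes were further apart. Prrx1 was 1.11-fold higher (log2 0.15, yardstick 0.30), and Meis2 1.24-fold higher (log2 0.31, yardstick 0.56). The deposited intervals of the libraries did not overlap for Prrx1, Prrx2 and Twist1, and they overlapped for the other 6. Those intervals cover counting and read assignment within a library, not the difference between pools. The median of the 9 centred log2 differences was 0.15 against 0 for all genes, and their median absolute difference was 0.16 against 0.13.

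Other genes also differed between the pools. Muscle markers summed to 1871 TPM in replicate 2 and 6120 in replicate 1, the digit genes Hoxd13 (26.6 and 17.6 TPM) and Hoxa13 (14.3 and 9.27 TPM) were beyond their yardsticks, and so were Tbx4 and Pitx1. Bone markers summed to 394 and 751 TPM in replicates 2 and 1. The embryonic globin gene Hbb-y, chosen after its values were seen, had 417 TPM in replicate 2 and 190 in replicate 1, 2.23-fold higher in replicate 2 and beyond its yardstick. Connective tissue markers were split, with 5 of 10 higher in each library. The part of these differences in the values of Twist1 and Prrx2 was not tested.

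**Figure D4:**
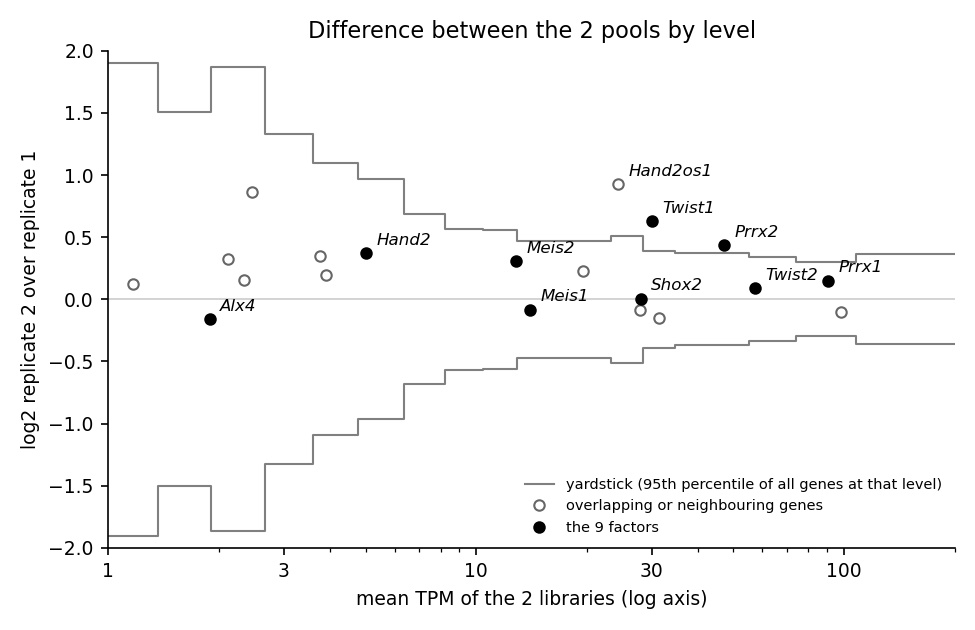
Centred log2 difference between the libraries (replicate 2 over replicate 1) against mean TPM on a log axis. Black points are the 9 factors, open points their overlapping or neighbouring genes with a mean of at least 1 TPM, and grey steps the yardstick at each level. Twist1 (0.63), Prrx2 (0.44) and Hand2os1 (0.92) lie above the upper step.

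Of 20 signalling genes and targets tied to these factors in the early limb, 18 had a mean of at least 1 TPM, 11 of them higher in replicate 2 and 7 higher in replicate 1, and 2 were beyond their yardsticks (Hoxd13 and Hoxa13). The list summed to 337 and 334 TPM in replicates 2 and 1. Snai2 and Snai1, repressors of epithelial genes, had 55.8 and 58.7 TPM and 43.3 and 51.7 TPM in replicates 2 and 1. Tnc, a matrix protein gene that Prrx1 can activate, had 49.4 and 51.8 TPM. At the other end stood the signals of the early bud, Shh with 13 counts in replicate 2 and 2 in replicate 1, and Fgf8 with 7 and 6 counts. Hand2, which acts upstream of Shh, was thus measured at 5.64 and 4.41 TPM in limbs where Shh itself had 0.18 and 0.03 TPM. Gli3, the Shh pathway repressor, lies outside the naming rule and was chosen after its values were seen, and it had 24.6 and 21.4 TPM.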

How the data were processed

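The gene table and the transcript table of each library were used. The build was mm10 per the labels and the annotation GENCODE M4 per the deposited sample records; the column layout is that of RSEM, with aligner and counter not given in the sources used here. The tables deposited by the authors hold expected counts (estimated reads that need not be whole, not normalized), TPM with an equal total in both libraries, and posterior mean TPM. The deposited percent column gives the share of the gene held by each transcript, and shares computed here from TPM lay within 0.246 percentage points of it. A deposited interval accompanies each TPM value. Symbols, coordinates, splice forms and sequences came from GENCODE M21 on GRCm38, the build called mm10, matched on identifiers without version (42462 of 43346 mouse rows had a symbol); of 48 member transcripts, 46 had the same length in the tables and in M21.

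Log2 values were taken on TPM + 0.1, and differences between libraries were centred on the median gene (shift -0.02). The yardstick used genes with a mean of at least 1 TPM in 20 bins of mean TPM. Splice choices were grouped by the exon start that follows a shared exon. Proteins were aligned with BLOSUM62 (gap open 10, extend 0.5) in Biopython 1.88. Expected counts were rounded for TMM scaling with edgeR 4.0.16, an alternative alone. Other steps used Python 3.11.15, numpy 2.4.6 and pandas 2.3.3. A test on simulated counts covered the yardstick and the share of genes over 2-fold apart, at counts above those of Hand2 and Alx4. Named are all members, the genes of 8 pairs, the 3 highest and 2 lowest genes by mean TPM of each list of relatives, partners and signals, the genes overlapping a member or starting within 5 kb of its start, and member transcripts with at least 5% of their gene. Of the marker lists mostly sums are given. No gene is named for likeness of pattern, which 2 libraries cannot measure. Some relatives and partners are not reported here. The members and lists were chosen with earlier results of these data known. A gene with 0 counts could have up to 3 counts, or 0.0718 CPM in replicate 2 and 0.0855 in replicate 1; because reads were amplified, this limit covers counting error and nothing else. Spike-ins took 2.26% and 2.28% of the counts.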

Additional observations from a re-analysis of the deposited data

How the results depend on the processing

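No paired analysis was possible because there is 1 group. The summed level of the 9 factors was 352 TPM when TPM was rescaled over protein-coding genes outside the mitochondrial genome (286 TPM as reported), since fewer genes then share the total, and it was 267 to 306 TPM with 1 library left out. The number of neighbours apart was 4 to 5 and of pairs beyond the yardstick 6 to 7 over the alternatives, but the pairs called differed: by CPM Twist2 over Prrx2 (0.701) took the place of Prrx2 over Twist1. Twist2 over Prrx2 was also apart without replicate 2 (0.471), and Hand2 over Alx4 with posterior mean TPM (1.356) and without replicate 1 (1.626). In every alternative run for them, 3 genes had 1 form over 50%, no member was over 2-fold apart (background 2.41% to 10.7%) and 2 were beyond the yardstick. Orders turned for pairs within the yardstick and, by CPM, for Prrx2 over Twist1, which was apart as reported. Twist1 over Shox2 (log2) was -0.005 with posterior mean TPM, -0.693 with CPM (counts scaled to library size alone), and it was -0.247 without replicate 2 and 0.376 without replicate 1. Meis1 over Meis2 was -0.131, -0.079 in the first 2 of these, -0.063 without replicate 1 and 0.327 without replicate 2, and Meis2 over Meis1 accordingly 0.131, 0.079, 0.063 and -0.327. By CPM, Prrx2 over Twist1 was -0.008 and Meis1 plus Meis2 over Hoxa13 plus Hoxd13 was 0.007; that scale does not divide by transcript length. The 7 added codons of Meis2 were in 36.2% of forms spliced out of exon 10 with posterior mean TPM. With 1 library left out, no spread can be given. Depth limits the genes and forms with few counts, such as Shh, Fgf8, Gm16140 and Meis2-215, while the lowest member had 210 counts. For Gm16140 the exon bases shared with Meis1 are a further limit.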
